A study of Arabidopsis thaliana with 9 samples.

Results

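The response of wild-type Arabidopsis thaliana root tips to low phosphate was described locus by locus, as the ratio of the library from seedlings at 5 µM phosphate over the library from seedlings at 1 mM phosphate. The loci were chosen by depth alone: of 33602 listed loci, 20066 had at least 20 counts in the 2 libraries together. The series holds 9 libraries, 1 per group, of 3 genotypes in the Col-0 background, which are wild type, the stop1 mutant and the almt1 mutant. Every group came from seedlings 5 days after germination on agar medium of 0.1 strength modified MS with 1% sucrose at pH 5.7, and the tips were the last 2 to 3 mm of the root. The groups set beside wild type here were stop1 at low and at high phosphate and almt1 at low and at high phosphate. The remaining groups were at low phosphate: stop1 and almt1 with 1 mM malate, and wild type at low iron with 100 µM ferrozine. These groups entered only the fit that supplied an estimate of spread. The labels name no mutant alleles, and each library is 1 biological replicate, so no spread between wild-type plants could be measured.

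Plants take up phosphorus as inorganic phosphate, and a shortage is sensed both inside the cell and at the root tip. Inside the cell, SPX proteins bind inositol pyrophosphates when phosphate is ample and hold back the MYB factor PHR1. When phosphate runs short, PHR1 is freed and switches on transporters, phosphatases, lipid-remodelling enzymes and non-coding regulators through a short promoter element, the P1BS site. At the tip, the zinc-finger factor STOP1 drives ALMT1, a channel that releases malate, and iron held in the apoplast by malate is part of the arrest of primary root growth.

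Several of the loci with the largest ratios carry that element, and 7 of their promoters are shown because the promoter comparison below turns on it. Each stretch is read 5′ to 3′ on the strand of the gene from the RefSeq TAIR10.1 genome, and the capitals mark 1 match to GNATATNC, the letters of the P1BS site:
SPX3: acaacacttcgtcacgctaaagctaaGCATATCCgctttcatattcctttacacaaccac
PHT1;2: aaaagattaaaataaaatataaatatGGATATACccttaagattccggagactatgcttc
NPC4: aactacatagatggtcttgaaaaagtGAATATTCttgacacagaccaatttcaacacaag
AT4: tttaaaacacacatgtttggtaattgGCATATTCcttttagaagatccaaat
AT2G04460: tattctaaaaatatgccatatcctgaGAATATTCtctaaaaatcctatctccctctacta
AT3G25240: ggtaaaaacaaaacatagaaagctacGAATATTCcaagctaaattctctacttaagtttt
AT1G08165: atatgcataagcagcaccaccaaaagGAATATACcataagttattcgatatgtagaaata
The SPX3 stretch lies at chr2:18606294-18606353 on the plus strand, the PHT1;2 stretch at chr5:17415630-17415689 on the plus strand and the AT4 stretch at chr5:894530-894581 on the plus strand. The NPC4 stretch lies at chr3:845282-845341 on the minus strand, and the AT3G25240 stretch at chr3:9192386-9192445 on the plus strand. The AT2G04460 stretch at chr2:1549031-1549090 and the AT1G08165 stretch at chr1:2562344-2562403 are both on the minus strand. In the window of 250 bases before to 50 after the gene start, AT2G04460 held 3 such matches and AT3G25240 and AT1G08165 held 2 each, while IPS1, PEPC1 and ALMT1 held none.

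A second set of sequences belongs to the miR399 system, in which a microRNA directs loss of PHO2 transcripts and the RNAs IPS1 and AT4 bind the microRNA without being cut. The mature microRNAs were read from TAIR10.1 and are shown with the seed, bases 2 to 8, in capitals:
ath-miR399b and ath-miR399c-3p: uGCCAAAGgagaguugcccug
ath-miR399d: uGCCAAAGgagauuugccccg
ath-miR399f: uGCCAAAGgagauuugcccgg
ath-miR827: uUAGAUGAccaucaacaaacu
The miR399 members share 1 seed, and miR827 has another. The sites of IPS1 (chr3:3051226-3051247, plus strand) and AT4 (chr5:895151-895172, plus strand) follow. Capitals mark stretches that pair exactly with miR399b and miR399c-3p, and lower case marks the bases between them, which hold the unpaired centre:
IPS1: GGGCAACTtctatCCTTTGGCA
AT4: GGGCAACTtcgatCCTTTGGCA

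The low-phosphate wild-type library differed in make-up from the high-phosphate one, and from the other libraries. Reads that did not align uniquely made up 44.9% of all recorded reads in it, against 5.02% in the high-phosphate wild type and 4.19% to 14.3% over the other 8 libraries. It kept 20619740 counts on loci, against 29934243 at high phosphate and 25677399 to 37189056 over the other 8. Mitochondrial loci held 1.01% of its counts, against 0.0646% at high phosphate, and annotated ribosomal RNA loci held 0.524%, against 0.0372%. The ratios were also related to transcript length. Nuclear protein-coding loci were put in 10 equal classes by exon length, and the median log2 ratio was -0.53 in the shortest class (median 779.5 bases) and 0.49 in the longest (median 3862 bases). In the stop1 pair these medians were -0.17 and 0.20, and in the almt1 pair 0.10 and 0.04. Ratios are therefore also given after centring on loci of like exon length, a step chosen after this relation was seen. The part of RNA quality or of ribosomal RNA in these differences was not tested.

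**Figure D1:**
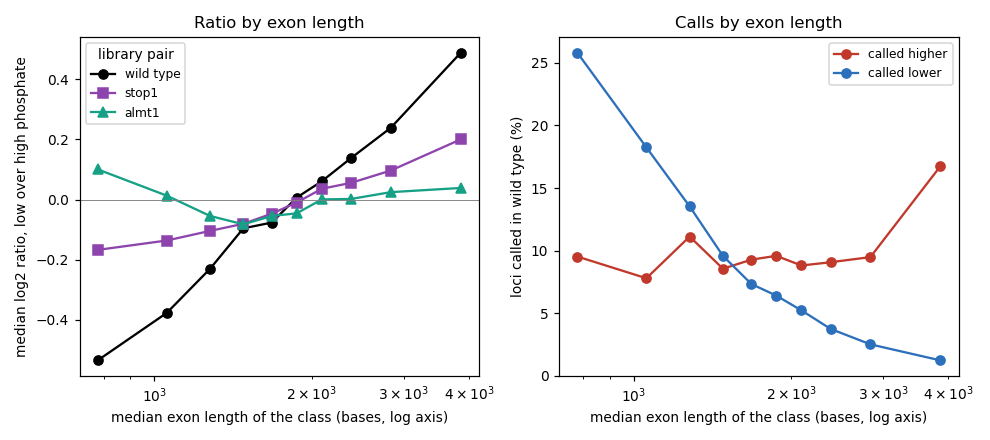
Left, median log2 ratio of low over high phosphate for 10 equal classes of nuclear protein-coding loci by exon length (bases, log axis) in the wild-type, stop1 and almt1 pairs; right, the percent of wild-type loci called higher or lower in each class. The wild-type median climbs to 0.49 in the longest class, while 25.8% of the shortest class and 1.23% of the longest were called lower.

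Markers of cell types were compared to check the label of root tip. Sums of markers, here and below, are CPM by total counts, that is counts per 1000000 counts on loci. For single loci, CPM is given after scaling by TMM, edgeR's trimmed mean of M-values. Total counts in place of TMM raised log2 ratios of low over high phosphate by a median of 0.10. Markers of the meristem summed to 75.9 CPM at low phosphate and 70.8 CPM at high phosphate, with none of 4 called. Root cap markers summed to 152 CPM at low phosphate and 126 CPM at high phosphate, with 2 of 8 called higher and none lower. COBL2, 1 of those called, had 28.6 CPM at low phosphate and 6.74 CPM at high phosphate. BRN1 and CEL5 lay the other way, at log2 -0.53 and -0.56. Both libraries held the quiescent-centre marker WOX5. Markers of green tissue summed to 103 CPM at low phosphate and 283 CPM at high phosphate, with 7 of 12 called lower, none called higher and 4 under 20 counts. The same sum was 77.2 CPM and 206 CPM in stop1 at low and high phosphate, and 95.9 CPM and 226 CPM in almt1. All 5 seed markers had under 20 counts, 4 of them with 0 in both libraries. In whole tips, fewer cells of a type and less RNA per cell cannot be told apart.

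STOP1 and ALMT1, the mutated genes of the other genotypes, were measured in wild type first. STOP1 had 144 CPM at low phosphate and 157 CPM at high phosphate, a log2 ratio of -0.12 (95% interval -0.19 to -0.06) that did not pass the fit described next (edgeR adjusted p = 0.81). ALMT1 rose, with 129 CPM at low phosphate and 56.6 CPM at high phosphate, a log2 ratio of 1.19 (95% interval 1.1002 to 1.28) and an edgeR adjusted p of 0.011. Its counts in the stop1 libraries were 2 at low phosphate and 1 at high phosphate. In the almt1 libraries they were 3232 at low phosphate and 1337 at high phosphate, so a count of ALMT1 does not check that label, and STOP1 counts were likewise present in the stop1 libraries.

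Of the 20066 loci, 2105 were called higher at low phosphate and 1903 lower. A call here means a ratio of TMM-scaled counts of at least 2-fold whose exact 95% interval excludes equality, and it covers counting error only. These calls make the background 10.5% higher and 9.48% lower, and the median log2 ratio over all loci was 0.01. At the ends of the range, 81 loci had 0 counts at high phosphate and 16 had 0 counts at low phosphate. After centring on exon length the calls were 1975 higher (9.89%) and 1384 lower (6.93%). A fit over all 9 libraries, in which stop1 and almt1 serve as replicates of each other and wild type is taken to vary as they do, gave 2553 loci higher (12.0% of 21229 tested) and 2078 lower (9.79%) by edgeR's quasi-likelihood test at an adjusted p under 0.05. The fit gave 1680 higher with an offset for exon length. Its counts depended on single mutant libraries: without the stop1 or the almt1 library at high phosphate it gave 873 and 831 higher and 643 and 603 lower, without their low-phosphate libraries 1575 and 1528 higher and 1330 and 1286 lower, and without their malate libraries 5020 and 5007 higher and 4065 and 4059 lower. Of the loci called from the 2 libraries, 1515 higher and 1333 lower also passed that test in the same direction. Below, "rose" and "fell" are used of loci that passed it.

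**Figure D2:**
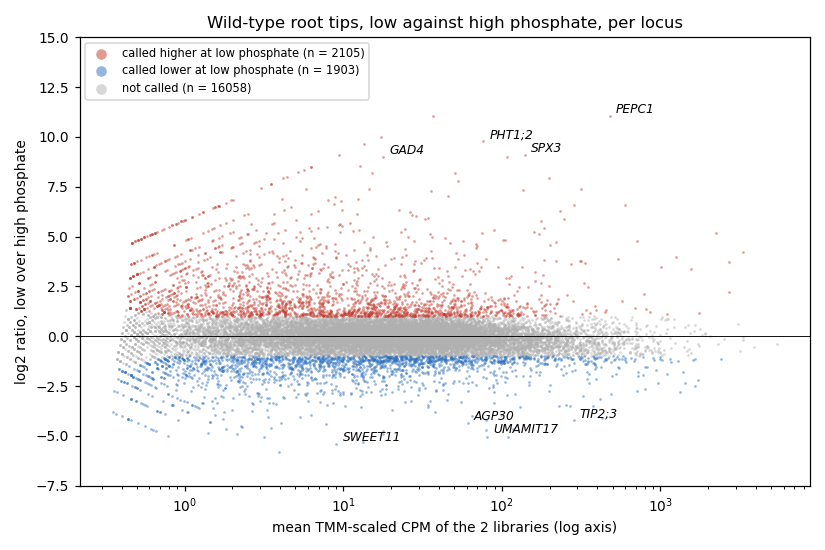
Log2 ratio of low over high phosphate in wild type (vertical) against the mean TMM-scaled CPM of the 2 libraries (log axis), 1 point per locus with counts in both libraries. The 81 loci with 0 counts at high phosphate and the 16 with 0 counts at low phosphate are not drawn, although the legend counts include those called. PEPC1, PHT1;2 and SPX3 stand above 9 on the log2 scale and SWEET11, UMAMIT17 and AGP30 below -4, and the called loci span the whole range of levels.

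The loci with the largest ratios were led by genes of phosphate starvation and by loci with little annotation. AT2G04460, annotated as a pseudogene, had 5277 counts at low phosphate and 0 counts at high phosphate, at least 2386-fold higher against a floor of 3 counts. Here and below, a fold against the floor takes the other count as exact, so "at least" refers to the floor only. The 95% interval reached lower, for AT2G04460 to log2 10.92 against 11.22. PEPC1, a phosphatase that frees phosphate from phosphoethanolamine and phosphocholine, had 959 CPM at low phosphate and 0.449 CPM at high phosphate, a log2 ratio of 11.06 (95% interval 10.28 to 11.97). PHT1;2, a high-affinity phosphate transporter, had 153 CPM at low phosphate and 0.173 CPM at high phosphate, a log2 ratio of 9.79 (95% interval 8.56 to 11.41). It lies beside near-identical copies, so reads shared among them were not counted. SPX3, a sensor-domain protein of the PHR1 circuit, had 279 CPM at low phosphate and 0.519 CPM at high phosphate, a log2 ratio of 9.07 (95% interval 8.35 to 9.91). IPS1, the decoy RNA shown above, had 214 CPM at low phosphate and 0.415 CPM at high phosphate, a log2 ratio of 9.01 (95% interval 8.21 to 9.97). All 4 of these genes were also above 7 on the log2 scale in both mutant pairs, with PHT1;2 at 8.39 in the stop1 pair and 7.79 in the almt1 pair and SPX3 at 7.65 in the stop1 pair and 7.21 in the almt1 pair.

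Other loci of the same end were also set beside the mutant pairs. GAD4, a glutamate decarboxylase, had 759 counts at low phosphate and 2 counts at high phosphate, a log2 ratio of 9.01 (95% interval 7.15 to 12.06), against 3.29 in the stop1 pair and 2.06 in the almt1 pair. CYP706A1, a cytochrome P450, had 542 counts at low phosphate and 2 counts at high phosphate, a log2 ratio of 8.52 (95% interval 6.66 to 11.57), against 3.56 in the stop1 pair and 0.40 in the almt1 pair. AT3G28580, which encodes a nucleoside triphosphate hydrolase of the P-loop type, had 580 counts at low phosphate and 1 count at high phosphate, a log2 ratio of 9.62 (95% interval 7.14 to 14.93). In the mutant pairs its log2 ratio was at least 4.18 in stop1, where the high-phosphate library held 0 counts and was set to the floor, and 3.27 in almt1. PRX52, a class III peroxidase, had 1005 counts at low phosphate and 0 counts at high phosphate, at least 454-fold higher against the floor. Its log2 ratio in the stop1 pair was 2.47, and the almt1 pair held under 20 counts. The chitinase-family locus AT2G43620 had 403 counts at low phosphate and 1 count at high phosphate, LCR67, of the defensin-like family, had 266 counts at low phosphate and 1 count at high phosphate, and PP2-B14, of the phloem protein 2 family, had 265 counts at low phosphate and 1 count at high phosphate. The same fit also tested whether the wild-type response, low minus high phosphate, differed from the response shared by the mutants. Over 21229 loci, 146 (0.688%) were more positive in wild type and 119 (0.561%) more negative at an edgeR adjusted p under 0.05. These calls went to 0 when any 1 of the 4 mutant libraries at low or high phosphate was left out, which holds for every difference given below. None of the 15 highest loci was among the 265.

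**Figure D3:**
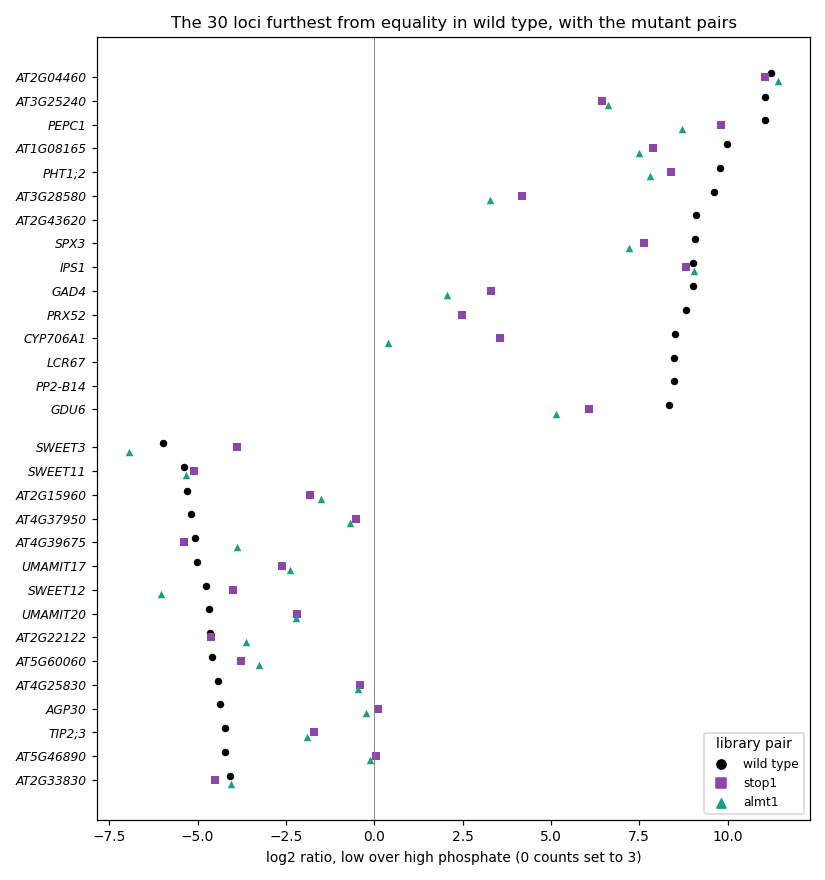
Log2 ratio of low over high phosphate for the 15 highest and 15 lowest wild-type loci (0 counts set to 3), with the wild-type, stop1 and almt1 pairs as points and a mutant point left out where that pair had under 20 counts. SPX3, IPS1, SWEET11 and SWEET12 have all their points on 1 side, while AGP30, AT5G46890 and AT4G25830 have mutant points near 0.

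The loci with the smallest ratios included sugar and amino acid exporters and wall proteins. SWEET11 and SWEET12 encode plasma-membrane sucrose exporters known from phloem loading. SWEET11 had 0.422 CPM at low phosphate and 17.7 CPM at high phosphate, a log2 ratio of -5.39 (95% interval -6.53 to -4.45), and the ratio was -5.10 in the stop1 pair and -5.33 in the almt1 pair. SWEET12 had 1.27 CPM at low phosphate and 34.5 CPM at high phosphate, a log2 ratio of -4.77 (95% interval -5.38 to -4.22). SWEET3, of the same family, had 0 counts at low phosphate and 255 counts at high phosphate, at least 62.7-fold lower against the floor. UMAMIT17 and UMAMIT20, amino acid transporters, had log2 ratios of -5.03 and -4.68, with UMAMIT20 at 5.96 CPM at low phosphate and 152 CPM at high phosphate. DRM2, of the dormancy-associated family, had 47.4 CPM at low phosphate and 811 CPM at high phosphate, a log2 ratio of -4.10, and the ratio was -4.52 in the stop1 pair and -4.06 in the almt1 pair.

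For 5 of the 15 lowest loci the wild-type response differed from the mutant response by edgeR, all more negative in wild type. AGP30, an arabinogalactan protein of the root wall, had 5.63 CPM at low phosphate and 117 CPM at high phosphate, a log2 ratio of -4.37 (95% interval -4.65 to -4.11), against 0.11 in the stop1 pair and -0.24 in the almt1 pair; the difference was -4.28 ± 0.46 (SE, edgeR adjusted p = 0.029). AT4G25830, of the same uncharacterized family as the Casparian strip proteins, had 15 counts at low phosphate and 433 counts at high phosphate, a log2 ratio of -4.41, against -0.39 in the stop1 pair and -0.45 in the almt1 pair, a difference of -3.94 ± 0.40 (SE, edgeR adjusted p = 0.021). AT2G15960, annotated as a stress-induced protein, had 14 counts at low phosphate and 755 counts at high phosphate, a log2 ratio of -5.31, against -1.81 in the stop1 pair and -1.51 in the almt1 pair, a difference of -3.61 ± 0.34 (SE, edgeR adjusted p = 0.02). The difference for UMAMIT20 was -2.43 ± 0.19 (SE, edgeR adjusted p = 0.02). The fifth was AT4G37950, a rhamnogalacturonate lyase with 0 counts at low phosphate and 148 counts at high phosphate, at least 36.4-fold lower against the floor (edgeR adjusted p of the difference = 0.021).

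Genes of phosphate sensing and signalling split between targets and regulators. Of 14 genes, 7 were called higher and 1 lower, and the median log2 ratio was 1.01. SPX1 had 1179 CPM at low phosphate and 12.2 CPM at high phosphate, a log2 ratio of 6.59 (95% interval 6.44 to 6.75). The decoy RNA AT4 had 1380.1 CPM at low phosphate and 50.6 CPM at high phosphate, a log2 ratio of 4.77 (95% interval 4.69 to 4.85). PHF1, which helps phosphate transporters leave the endoplasmic reticulum, and SPX2 had log2 ratios of 1.94 and 1.85, and PHO1;H1, a phosphate exporter homologue, one of 1.36. By contrast the regulator PHR1 had 57.0 CPM at low phosphate and 65.8 CPM at high phosphate (log2 -0.21, edgeR adjusted p = 0.48), and PHO2, the ubiquitin conjugase that miR399 targets, had 144 CPM at low phosphate and 164 CPM at high phosphate (log2 -0.20, edgeR adjusted p = 0.67). NLA, a ubiquitin ligase that acts on phosphate transporters and a known target of miR827, fell, with 10.7 CPM at low phosphate and 25.5 CPM at high phosphate, a log2 ratio of -1.25 (95% interval -1.48 to -1.04); it overlaps another locus, and the libraries do not keep the strand.

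The precursor loci of those microRNAs were detected mostly at low phosphate, although at few counts. MIR827 had 64 counts at low phosphate and 0 counts at high phosphate, MIR399c 55 counts at low phosphate and 0 counts at high phosphate, and MIR399d 20 counts at low phosphate and 0 counts at high phosphate, which is at least 28.9-fold, 24.9-fold and 9.04-fold higher against the floor. MIR399b had 13 counts at low phosphate and 0 at high phosphate, MIR399f had 1 and 0, and MIR399a and MIR399e had 0 in both libraries. These are reads of precursor transcripts, and mature microRNA was not measured. Over all 21 measured microRNA loci, 4 were called higher and 3 lower, with a median of -0.36. MIR822 fell, with 302 counts at low phosphate and 1145 counts at high phosphate, a log2 ratio of -1.48 (95% interval -1.67 to -1.30), while MIR163 had 383 counts at low phosphate and 1810 counts at high phosphate (edgeR adjusted p = 0.079). Other non-coding RNAs rose: AT3G57157 had 1457 counts at low phosphate and 102 counts at high phosphate, a log2 ratio of 4.28 (95% interval 3.99 to 4.58), and AT1G21529 had 175 counts at low phosphate and 2 counts at high phosphate, a log2 ratio of 6.89 (95% interval 5.02 to 9.95).

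All 7 measured phosphate transporter genes of the PHT1 family were called higher, with a median log2 ratio of 6.53. Besides PHT1;2, PHT1;8 had 364 counts at low phosphate and 0 counts at high phosphate, at least 165-fold higher against the floor, and PHT1;9 had 24.4 CPM at low phosphate and 0.207 CPM at high phosphate, a log2 ratio of 6.88 (95% interval 5.75 to 8.33). PHT1;4, a main uptake transporter, had 585 CPM at low phosphate and 43.3 CPM at high phosphate, a log2 ratio of 3.76, and PHT1;1 had 436 CPM at low phosphate and 129 CPM at high phosphate, a log2 ratio of 1.76. PHT1;5 had 12.3 CPM at low phosphate and 0.173 CPM at high phosphate. PHT1;7 had 205 counts at low phosphate and 0 counts at high phosphate but did not pass edgeR (adjusted p = 0.073). PHT1;3 and PHT1;6 had 5 and 1 counts at low phosphate and 0 at high phosphate, too few to call. PHT1;1, PHT1;2 and PHT1;3 are near-identical neighbours, so how the reads divide among them is uncertain.

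Phosphatases and nucleases that free phosphate from organic sources were mostly higher: 11 of 13 measured genes were called higher and none lower, with a median of 4.53. PS2, a pyrophosphatase of the same family as PEPC1, had 566 CPM at low phosphate and 5.91 CPM at high phosphate, a log2 ratio of 6.58 (95% interval 6.36 to 6.81). Among purple acid phosphatases, PAP17 had 334 CPM at low phosphate and 9.65 CPM at high phosphate, a log2 ratio of 5.11. PAP11, PAP14 and PAP23 had 0 counts at high phosphate and 215, 185 and 136 at low phosphate, at least 97.2-fold, 83.6-fold and 61.5-fold higher against the floor. RNS1, a secreted ribonuclease, had 135 CPM at low phosphate and 5.84 CPM at high phosphate, a log2 ratio of 4.53. PAP26, a vacuolar and secreted acid phosphatase, went the other way, with 361 CPM at low phosphate and 594 CPM at high phosphate, a log2 ratio of -0.72, short of the 2-fold call but passing edgeR (adjusted p = 0.044). PAP24 was the 1 gene of the list whose response was larger than in the mutants, a difference of 2.92 ± 0.35 (SE, edgeR adjusted p = 0.028), and it overlaps another locus.

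Membrane lipid remodelling, in which phospholipids are degraded and replaced by lipids without phosphorus, rose on both sides. Of 13 measured genes, 10 were called higher and none lower (median 2.88), and 11 rose by edgeR. NPC4, a phospholipase C that removes phospholipid head groups, had 269.8 CPM at low phosphate and 1.66 CPM at high phosphate, a log2 ratio of 7.34 (95% interval 6.94 to 7.79). PLDP2, a phospholipase D, had 91.1 CPM at low phosphate and 3.596 CPM at high phosphate, a log2 ratio of 4.66, and GDPD1, which degrades the freed glycerophosphodiesters, had 425 CPM at low phosphate and 16.1 CPM at high phosphate, a log2 ratio of 4.73. On the replacement side, MGD3, a galactolipid synthase, had 146 CPM at low phosphate and 4.01 CPM at high phosphate, a log2 ratio of 5.19. SQD1 and SQD2, which make sulfolipid, had log2 ratios of 2.94 and 3.69. Medians in the mutant pairs were 2.16 in stop1 and 2.39 in almt1.

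Enzymes of organic acid supply and of the glycolytic bypasses had smaller ratios: 7 of 12 measured genes were called higher and none lower, with a median of 1.11. PPCK1, the kinase of phosphoenolpyruvate carboxylase, had 286 CPM at low phosphate and 69.2 CPM at high phosphate, a log2 ratio of 2.05 (95% interval 1.98 to 2.12). The carboxylase genes PPC2 and PPC1 had log2 ratios of 1.78 and 1.21. PPDK, pyruvate orthophosphate dikinase, had 56.1 CPM at low phosphate and 10.9 CPM at high phosphate, a log2 ratio of 2.36, against 0.45 in the stop1 pair and 0.57 in the almt1 pair. Its difference from the mutants was 1.89 ± 0.20 (SE, edgeR adjusted p = 0.021).

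Sugar transporters were called in both directions, 4 of 14 measured genes higher and 3 lower, with a median of 0.36. Alongside the lower SWEET11 and SWEET12, SWEET14 had 7.22 CPM at low phosphate and 0.449 CPM at high phosphate, a log2 ratio of 4.01 (95% interval 3.19 to 4.95). STP13, a hexose uptake carrier, had 106 CPM at low phosphate and 40.3 CPM at high phosphate, a log2 ratio of 1.39. Dormancy and sugar-starvation markers had a median of -0.56, and 2 of 13 were called higher and 4 lower. DIN6, an asparagine synthetase, had 110.3 CPM at low phosphate and 4.05 CPM at high phosphate, a log2 ratio of 4.77 (95% interval 4.50 to 5.05), against -2.18 in the stop1 pair and 0.04 in the almt1 pair. Neither DIN6 nor any other gene of this list differed from the mutants by edgeR's test of the difference. DRM1, of the same family as DRM2, had 49.5 CPM at low phosphate and 196 CPM at high phosphate, a log2 ratio of -1.99.

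Aliphatic glucosinolate synthesis, the methionine-derived branch of the defence compounds of Brassicaceae, was higher in nearly every gene measured. Of 16 measured genes, 15 were called higher and none lower, with a median of 2.77, against 0.73 in the stop1 pair and 0.77 in the almt1 pair. BCAT4, the first enzyme of methionine chain elongation, had 349 CPM at low phosphate and 6.43 CPM at high phosphate, a log2 ratio of 5.76 (95% interval 5.55 to 5.98). MAM1, which elongates the chain, had 131 CPM at low phosphate and 6.12 CPM at high phosphate, and CYP83A1, of the core pathway, had 247 CPM at low phosphate and 21.9 CPM at high phosphate. The regulator MYB28 had 51.6 CPM at low phosphate and 11.5 CPM at high phosphate, a log2 ratio of 2.16, while its relatives MYB29 and MYB76 had 0 counts in both libraries. For 7 of the genes the wild-type response was more positive than the mutant response by edgeR: BCAT4 by 3.41 ± 0.33 (SE, edgeR adjusted p = 0.021), MAM1 by 3.83 ± 0.39 (SE, edgeR adjusted p = 0.021) and the chloroplast carrier BAT5 by 2.43 ± 0.28 (SE, edgeR adjusted p = 0.023), followed by IPMI2, CYP79F2, IMD1 and MAM3. BCAT4 and IMD1 overlap another locus.

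In the tryptophan-derived indole branch, 8 of 18 genes were called higher and 2 lower, with a median of 0.90. CYP81F2, which hydroxylates indole glucosinolates, had 23.64 CPM at low phosphate and 2.80 CPM at high phosphate, a log2 ratio of 3.08 (95% interval 2.74 to 3.43). ASA1, the first enzyme of tryptophan synthesis, had 80.6 CPM at low phosphate and 18.9 CPM at high phosphate, and its difference from the mutants was 1.90 ± 0.25 (SE, edgeR adjusted p = 0.034). The neighbouring methyltransferase genes IGMT2 and IGMT1 gave opposite values, log2 2.63 and -2.46, and neither passed edgeR; they are close copies, and their division of reads is uncertain.

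Sulfate uptake and assimilation, which supplies the sulfur of glucosinolates and sulfolipid, had 7 of 17 genes called higher and 3 lower, with a median of 0.77. SULTR1;3, a phloem sulfate transporter, had 15.4 CPM at low phosphate and 0.346 CPM at high phosphate, a log2 ratio of 5.48 (95% interval 4.58 to 6.55). SULTR2;1, of the vasculature, had 37.7 CPM at low phosphate and 2.59 CPM at high phosphate, and APR1, which reduces activated sulfate, had 281 CPM at low phosphate and 40.8 CPM at high phosphate. LSU2, a marker of sulfur shortage, had 51.6 CPM at low phosphate and 4.25 CPM at high phosphate. The high-affinity uptake carriers fell: SULTR1;1 had 5.02 CPM at low phosphate and 16.7 CPM at high phosphate and SULTR1;2 had 92.7 CPM at low phosphate and 248 CPM at high phosphate. Among 18 measured genes of nitrogen uptake and reduction, 4 were called higher and 2 lower (median 0.51). NRT1.8, which retrieves nitrate from the xylem, had 12.0 CPM at low phosphate and 0.968 CPM at high phosphate, a log2 ratio of 3.63. NRT1.1, the dual-affinity nitrate transporter, had 214 CPM at low phosphate and 512 CPM at high phosphate, a log2 ratio of -1.26.

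Jasmonate synthesis, the oxylipin pathway of wound signalling, had 7 of 13 measured genes called higher and none lower. The median was 1.02, against 0.13 in the stop1 pair and 0.04 in the almt1 pair, but none of these genes differed from the mutants by edgeR's test of the difference. AOC1, an allene oxide cyclase, had 5.44 CPM at low phosphate and 0.207 CPM at high phosphate, a log2 ratio of 4.71 (95% interval 3.55 to 6.19); it lies in tandem with AOC2 and AOC3, all called higher. LOX3, a lipoxygenase, had 39 counts at low phosphate and 0 counts at high phosphate, at least 17.63-fold higher against the floor. Of 19 measured genes for jasmonate turnover, repressors and targets, 9 were called higher and 2 lower (median 1.08, against -0.09 in stop1 and -0.12 in almt1). TAT3, a tyrosine aminotransferase used as a jasmonate marker, had 26.1 CPM at low phosphate and 1.003 CPM at high phosphate, a log2 ratio of 4.70 (95% interval 4.16 to 5.30). JAZ10, a repressor that jasmonate itself induces, had 13.9 CPM at low phosphate and 0.761 CPM at high phosphate, a log2 ratio of 4.19, against 0.08 in the stop1 pair and 0.53 in the almt1 pair. Its difference was 3.92 ± 0.58 (SE, edgeR adjusted p = 0.043), and that of ST2A, which sulfates a jasmonate derivative, was 2.90 ± 0.25 (SE, edgeR adjusted p = 0.02); JAZ1 was the third gene of the list with a larger response in wild type.

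Touch-responsive calmodulins and early stress regulators had 8 of 22 measured genes called higher and 2 lower, with a median of 0.75. TCH3, a calmodulin-like protein, had 388 CPM at low phosphate and 16.4 CPM at high phosphate, a log2 ratio of 4.56 (95% interval 4.43 to 4.70). The stress factor WRKY33 had 68.4 CPM at low phosphate and 16.9 CPM at high phosphate, and ZAT10 had 13.04 CPM at low phosphate and 3.18 CPM at high phosphate. Among immune receptors and defence products, 9 of 16 measured genes were called higher and none lower, with a median of 1.43. CYP71B15, the last enzyme of camalexin synthesis, had 47.1 CPM at low phosphate and 7.40 CPM at high phosphate, a log2 ratio of 2.67 (95% interval 2.46 to 2.89). CYP71A12, of the same route, had 44.5 CPM at low phosphate and 0.553 CPM at high phosphate (log2 6.33, edgeR adjusted p = 0.061). FRK1, a kinase induced by bacterial flagellin, had 4.78 CPM at low phosphate and 0.449 CPM at high phosphate. The salicylate and jasmonate marker genes PR1, PR2, PR5 and PDF1.2 had 0 counts in both libraries.

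Of 15 genes of the response to low oxygen, 9 were called higher and none lower, with a median of 1.14, but 3 rose by edgeR. They were PCO1, an oxidase that marks response factors for degradation, with 5.25 CPM at low phosphate and 1.31 CPM at high phosphate, the sucrose synthase SUS1, with 89.8 CPM at low phosphate and 25.6 CPM at high phosphate, and the regulator LBD41, at log2 1.14. ADH1, alcohol dehydrogenase, had a log2 ratio of 1.64 and did not pass (edgeR adjusted p = 0.058). Heat shock factors and chaperones had 1 of 18 measured genes called higher and 1 lower.

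Of 25 measured genes of iron uptake and coumarins, 4 were called higher and 6 lower, with a median of 0.33. IRT1, the main root iron transporter, had 32.4 CPM at low phosphate and 10.96 CPM at high phosphate, a log2 ratio of 1.56 (95% interval 1.37 to 1.76), against -2.15 in the stop1 pair and -3.02 in the almt1 pair. Its difference from the mutants was 4.24 ± 0.46 (SE, edgeR adjusted p = 0.023). NAS2, which makes the chelator nicotianamine, had 87.5 CPM at low phosphate and 17.3 CPM at high phosphate, a difference of 2.44 ± 0.27 (SE, edgeR adjusted p = 0.022), and FRO2, the ferric reductase, also differed from the mutants in the same direction. The regulators FRU, also called FIT, and BHLH39 fell, with log2 ratios of -1.28 and -1.34. In iron storage and export, 4 of 9 measured genes were called higher and none lower (median 0.76, and 1.17 after centring on length). FER1, a ferritin, had 288 CPM at low phosphate and 92.1 CPM at high phosphate, a log2 ratio of 1.64 (95% interval 1.58 to 1.71). VTL1, of the vacuolar iron transporter family, had 23.3 CPM at low phosphate and 4.88 CPM at high phosphate.

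The cell wall showed large changes in both directions. Of 36 class III peroxidases, 15 were called higher and 6 lower, with a median of 0.55. AT2G18150 had 102 CPM at low phosphate and 0.346 CPM at high phosphate, a log2 ratio of 8.20 (95% interval 7.32 to 9.26), and AT4G36430 had 396 CPM at low phosphate and 1.59 CPM at high phosphate, a log2 ratio of 7.96 (95% interval 7.54 to 8.41). AT4G08780 had 64.6 CPM at low phosphate and 1.11 CPM at high phosphate, a log2 ratio of 5.87, against -0.19 in the stop1 pair and -0.73 in the almt1 pair, and its difference was 6.36 ± 0.67 (SE, edgeR adjusted p = 0.023); it overlaps another locus. AT3G01190 fell, with 115 CPM at low phosphate and 861 CPM at high phosphate, a log2 ratio of -2.90. Several of these genes are tandem copies, whose shared reads were not counted.

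Extensins, proline-rich and arabinogalactan proteins split within the list, 10 of 27 called higher and 8 lower (median 0.24). The extensin EXT10 had 579.6 CPM at low phosphate and 42.1 CPM at high phosphate, and EXT1 had 328 CPM at low phosphate and 38.7 CPM at high phosphate. EXT3, which is needed for wall assembly, had 4439 CPM at low phosphate and 963 CPM at high phosphate, a log2 ratio of 2.204 (95% interval 2.18 to 2.22). LRX1, a leucine-rich extensin of root hairs, had 189 CPM at low phosphate and 24.5 CPM at high phosphate, a difference from the mutants of 2.38 ± 0.35 (SE, edgeR adjusted p = 0.049). The small arabinogalactan peptides AGP13 and AGP14 fell: AGP13 had 12.1 CPM at low phosphate and 186 CPM at high phosphate, and AGP14 had 36.6 CPM at low phosphate and 419 CPM at high phosphate. AGP13 had a log2 ratio of -3.93, against -0.02 in the stop1 pair and 0.26 in the almt1 pair, a difference of -4.003 ± 0.29 (SE, edgeR adjusted p = 0.02). AGP14 had a log2 ratio of -3.52, against -0.30 in the stop1 pair and 0.18 in the almt1 pair, a difference of -3.41 ± 0.28 (SE, edgeR adjusted p = 0.02). In all, 3 genes of this list had a more positive and 5 a more negative response in wild type than in the mutants.

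Expansins and xyloglucan enzymes, which loosen and remodel growing walls, had 9 of 30 measured genes called higher and 9 lower. EXPA1 had 99.5 CPM at low phosphate and 6.74 CPM at high phosphate, a log2 ratio of 3.88 (95% interval 3.67 to 4.10), and XTH20 had 40.7 CPM at low phosphate and 6.71 CPM at high phosphate. XTH17 fell to 20.6 CPM at low phosphate, against 239 CPM at high phosphate, a log2 ratio of -3.53 (95% interval -3.68 to -3.39). XTH16 had 9.94 CPM at low phosphate and 67.5 CPM at high phosphate, and EXPB1 had 7.08 CPM at low phosphate and 28.7 CPM at high phosphate. The XTH17 ratio was -0.14 in the stop1 pair and 0.17 in the almt1 pair, a difference of -3.49 ± 0.44 (SE, edgeR adjusted p = 0.04). The XTH16 ratio was 0.10 in the stop1 pair and 0.30 in the almt1 pair, a difference of -2.92 ± 0.23 (SE, edgeR adjusted p = 0.02), and that for EXPB1 was -2.38 ± 0.24 (SE, edgeR adjusted p = 0.021).

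Aquaporins, the water channels of plasma and vacuolar membranes, were lower as a group: 14 of 20 were called lower and 1 higher, with a median of -1.85, against -0.43 in the stop1 pair and -0.45 in the almt1 pair. The vacuolar channel TIP2;3 had 28.8 CPM at low phosphate and 539 CPM at high phosphate, a log2 ratio of -4.22 (95% interval -4.34 to -4.11). PIP2;4 had 72.6 CPM at low phosphate and 579.9 CPM at high phosphate, a log2 ratio of -3.00 (95% interval -3.07 to -2.92), against -0.91 in the stop1 pair and -0.99 in the almt1 pair, and its difference was -2.01 ± 0.29 (SE, edgeR adjusted p = 0.041). PIP2;2 and PIP2;3, near-identical neighbours, had log2 ratios of -2.79 and -2.92. PIP2;5 went the other way, with 9.33 CPM at low phosphate and 0.657 CPM at high phosphate, a log2 ratio of 3.83 (95% interval 3.15 to 4.59). Centring on exon length left 14 called lower, with a median of -1.67.

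Genes of tissue layers were compared beside their markers. Of 20 genes of the Casparian strip and suberin, 5 were called higher and 4 lower, with a median of 0.63. FAR1, which makes suberin alcohols, had 19.6 CPM at low phosphate and 1.94 CPM at high phosphate, and CASP5, a Casparian strip protein, had 2.34 CPM at low phosphate and 17.7 CPM at high phosphate, a difference from the mutants of -2.15 ± 0.28 (SE, edgeR adjusted p = 0.034). The summed markers of suberized endodermis were 464 CPM at low phosphate and 239 CPM at high phosphate, and those of the endodermis 245 CPM and 344 CPM, with 2 of 5 called lower. Xylem and secondary wall genes had a median of -0.69, with 1 of 16 called higher and 3 lower. XCP1, a protease of xylem vessels, had 86.7 CPM at low phosphate and 241 CPM at high phosphate. Xylem markers summed to 231 CPM at low phosphate and 516 CPM at high phosphate, with 2 of 6 called lower and none higher. The part of tissue make-up in these values was not tested.

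Root hair genes had 3 of 18 called higher and 4 lower, with a median of 0.34. WER, which specifies hairless cells, fell, with 15.9 CPM at low phosphate and 47.0 CPM at high phosphate, and RHS19 and RHS10, of growing hairs, rose, with log2 ratios of 1.17 and 1.17. Of 5 markers of root hair cells, 1 was called, the wall protein gene PRP3, with 352 CPM at low phosphate and 97.9 CPM at high phosphate. The expansin markers lay the other way, EXPA7 with 118 CPM at low and 139.8 CPM at high phosphate and EXPA18 with 129 CPM at low and 174 CPM at high phosphate. In the stem cell niche, 4 of 18 measured genes were called higher and 2 lower (median 0.15). WOX5, which marks the quiescent centre, had 6.80 CPM at low phosphate and 1.76 CPM at high phosphate, a log2 ratio of 1.95 (95% interval 1.48 to 2.44), and PLT3, a PLETHORA factor, had 86.0 CPM at low phosphate and 24.96 CPM at high phosphate. Its log2 ratio was 1.78, against 0.09 in the stop1 pair and 0.13 in the almt1 pair, and the difference 1.72 ± 0.18 (SE, edgeR adjusted p = 0.021). Of 40 cell cycle genes, 1 was called higher and 2 lower, with a median of -0.02 (0.08 when scaled by total counts), and 10 fell by edgeR, among them AUR2, an aurora kinase, at log2 -1.03 and CDKB1;1 at -0.84.

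Hormone lists other than jasmonate gave medians between -0.50 and 0.42. Ethylene had 2 of 18 genes called higher and 1 lower. ACS7, a synthase of the ethylene precursor, had 8.07 CPM at low phosphate and 1.38 CPM at high phosphate, and ACO5, the oxidase that follows, had 198 CPM at low phosphate and 793 CPM at high phosphate, a difference from the mutants of -1.39 ± 0.20 (SE, edgeR adjusted p = 0.041). Auxin had 2 of 31 called higher and 4 lower. ARF5, an auxin response factor, had 78.6 CPM at low phosphate and 15.6 CPM at high phosphate, a difference of 1.56 ± 0.23 (SE, edgeR adjusted p = 0.044), and LAX3, an influx carrier, had 40.2 CPM at low phosphate and 108 CPM at high phosphate, a difference of -1.26 ± 0.20 (SE, edgeR adjusted p = 0.048). Cytokinin had 1 of 19 called higher and 6 lower (median -0.50), and IPT5 and IPT3, which make cytokinin, fell, with log2 ratios of -1.74 and -1.41. Brassinosteroid had none of 12 called higher and 2 lower: BR6OX1, of its synthesis, had 0.750 CPM at low phosphate and 11.7 CPM at high phosphate, a difference of -3.81 ± 0.31 (SE, edgeR adjusted p = 0.02). Gibberellin had 4 of 13 measured genes called higher and 1 lower, and GA2OX2, which inactivates the hormone, had 12.2 CPM at low phosphate and 0.968 CPM at high phosphate. In the dehydration and abscisic acid list, 1 of 16 measured genes was called higher and 3 lower. RD22 had 12.3 CPM at low phosphate and 0.795 CPM at high phosphate, a difference of 5.68 ± 0.66 (SE, edgeR adjusted p = 0.024). Its log2 ratio was 3.95 in wild type and -2.05 in the almt1 pair, and the stop1 pair held under 20 counts.

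**Figure D4:**
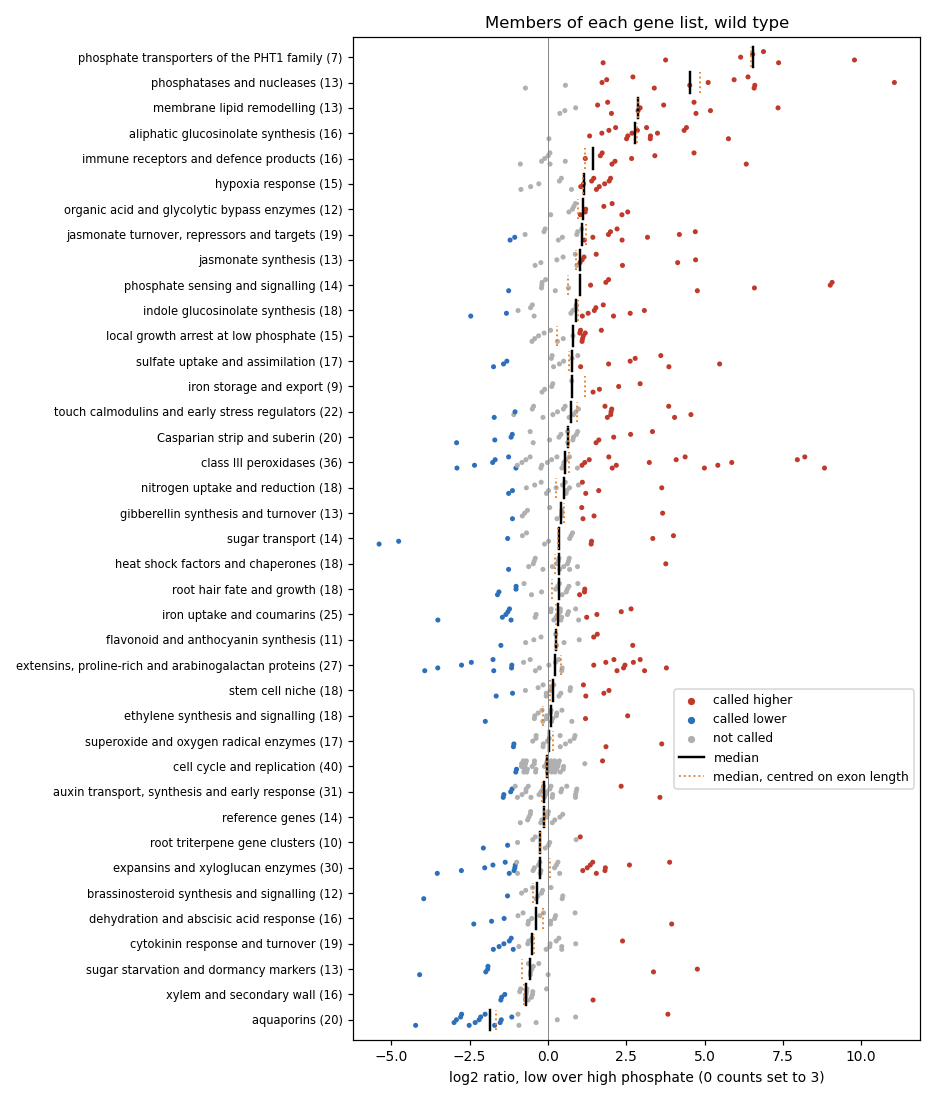
Log2 ratios of low over high phosphate in wild type for the members of each gene list, 1 point per locus with at least 20 counts, with the list median before and after centring on exon length. The PHT1 transporters, phosphatases, lipid-remodelling and aliphatic glucosinolate genes sit highest, and the aquaporins lowest at a median of -1.85.

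None of 14 reference genes used for normalization were called, with a median of -0.12, although UBC21 fell by edgeR, with a log2 ratio of -0.88. Of 17 measured superoxide and oxygen radical enzymes, 2 were called higher and 2 lower; FSD1, an iron superoxide dismutase, had 42.9 CPM at low phosphate and 3.46 CPM at high phosphate. Of 11 measured flavonoid genes, 3 were called higher and 1 lower, and of 10 genes in root triterpene clusters 1 was called higher and 2 lower.

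The genes of local growth arrest at low phosphate, the pathway of the STOP1 and LPR1 proteins, depended on the correction for length. As measured, 7 of 15 were called higher and none lower, with a median of 0.80. After centring, 1 was called higher and 1 lower, with a median of 0.27. LPR1, a ferroxidase, kept its call, with 9.24 CPM at low phosphate and 2.84 CPM at high phosphate, a log2 ratio of 1.70 (95% interval 1.33 to 2.09) and 1.59 after centring; it overlaps another locus. The callose synthases GSL04 and GSL05, with long transcripts, had log2 ratios of 1.13 and 1.105, and 0.51 and 0.48 after centring. Families of genes, picked after their values were seen, were also counted before and after centring. Ribosomal protein genes, with short transcripts, had 59 of 317 called lower and 4 higher (median -0.58), and 18 and 5 after centring (median -0.23). Disease resistance genes had 42 of 142 called higher and 5 lower, and 29 and 7 after centring. WRKY factors had 17 of 55 called higher and 1 lower (median 0.59), and 20 and 1 after centring (median 0.57). ABC transporters had 25 of 54 called higher and none lower, and 17 and none after centring.

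All 43 measured plastid loci and 29 of 31 mitochondrial loci were called higher, with medians of 4.06 and 3.76. In the stop1 pair these medians were 0.37 and 0.19, and in the almt1 pair -1.21 and -0.76. The 18S ribosomal RNA locus AT3G41768 had 107072 counts at low phosphate and 11076 counts at high phosphate, and ATMG00020 133893 counts at low phosphate and 9867 counts at high phosphate, the largest count of the low-phosphate library. For ATMG01390 the log2 ratio was 3.38 (95% interval 3.35 to 3.42) and the difference from the mutants 3.61 ± 0.47 (SE, edgeR adjusted p = 0.041). Among measured loci in genome order, 80 runs of at least 3 adjacent loci were called the same way, 50 of them higher and 30 lower. With 10.5% of all loci called higher and 9.48% lower, some runs arise without clustering, and how many was not worked out. The longest run, of 14 loci from AT2G07747 to AT2G07711, had a median of 3.46. It lies on chromosome 2 in a region known to carry a copy of mitochondrial DNA. Reads of the 2 origins cannot be told apart. These values move with the library make-up given above, whose part in them was not tested.

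Some of the other runs held neighbouring nuclear genes. A run of 8 loci on chromosome 5 from AT5G22520 to AT5G22580, which includes WRKY38, had a median of 2.82. A run of 6 loci from AT5G52670 to AT5G52760, where AT5G52670 is annotated to the copper transport protein family, had a median of 4.03, and AT5G52670 had 212 counts at low phosphate and 5 counts at high phosphate. A run of 4 loci from AT1G26380 to AT1G26420, where AT1G26380 encodes a FAD-binding berberine-family protein, had a median of 4.67. A run of 4 loci that includes the efflux carrier DTX1 had a median of 3.68. Tandem copies share sequence, and only uniquely aligned reads were counted.

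Among the most abundant nuclear transcripts, values lay on both sides of equality. PYK10, the beta-glucosidase of root ER bodies, had 99356 counts at low phosphate and 179374 counts at high phosphate, a log2 ratio of -0.41 (95% interval -0.42 to -0.40), and was the largest count at high phosphate. EXT3 had 94645 counts at low phosphate and 27862 counts at high phosphate. ANNAT1, an annexin, had 80012 counts at low phosphate and 69800 counts at high phosphate, a log2 ratio of 0.64 (95% interval 0.62 to 0.65). The glutathione transferase GSTU19 had 49873 counts at low phosphate and 114871 counts at high phosphate, a log2 ratio of -0.76, and the cytosolic isocitrate dehydrogenase cICDH 32451 counts at low phosphate and 95503 counts at high phosphate, a log2 ratio of -1.12.

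The share of promoters with a P1BS match followed the size of the ratio at the upper end. GNATATNC, searched on both strands of the window of 250 bases before to 50 after the gene start, was found in 18.7% of the 267 promoters of loci at a log2 ratio of 4 or more (50 promoters). It was in 10.4% of those from 2 to 4, 8.22% of those from 1 to 2, 5.87% of those between -1 and 1, and 6.28% of all 19974 promoters. In the lists, 8 of 13 lipid-remodelling promoters (61.5%), 7 of 13 phosphatase promoters (53.8%) and 3 of 7 PHT1 promoters (42.9%) held it. Of 14 promoters of phosphate sensing and signalling, 3 held it (21.4%). None of 16 aliphatic glucosinolate promoters did, and other lists also held none, such as iron uptake and coumarins (25 promoters) and sugar transport (14). CGCGTT, the core of CAMTA sites, was in 5.67% of promoters of loci called higher, 2.103% of those called lower and 3.78% of all. TTGACC, the WRKY core, was in 17.2% of those called higher, 12.2% of those called lower and 14.5% of all. CACGTG, the G-box, was in 8.42% of those called higher, 8.52% of those called lower and 8.55% of all. AAACCCTA, the telo-box, was in 3.40% of those called higher, 4.15% of those called lower and 5.48% of all. A match is a stretch of letters, and no binding was measured.

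**Figure D5:**
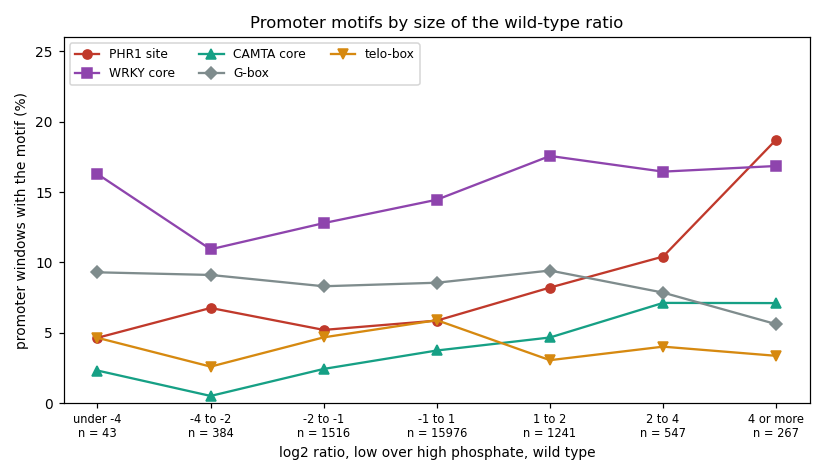
Percent of promoter windows that hold each of 5 motifs, by bins of the wild-type log2 ratio of low over high phosphate, with the number of promoters under each bin. The P1BS line (labelled PHR1 site) reaches 18.7% in the bin of 4 or more, against 5.87% between -1 and 1.

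Set against the mutants over all loci, loci called in wild type had smaller medians in the mutant pairs. Of the loci called higher, 1774 were measured in the stop1 pair, where the median log2 ratio in wild type was 1.58 and that in stop1 0.55. In the almt1 pair 1839 were measured, with a median of 1.61 in wild type and 0.32 in almt1. Of the loci called lower, 1858 were measured in the stop1 pair (median -1.39 in wild type and -0.50 in stop1) and 1892 in the almt1 pair (-1.40 in wild type and -0.30 in almt1). The choice of loci by their wild-type ratio makes the wild-type value the more extreme, so these medians carry no test. The 265 loci whose response differed by edgeR's test depended on single mutant libraries. Leaving out 1 of the 4 mutant libraries at low or high phosphate gave 0 calls each time at an adjusted p under 0.05 by edgeR, with 1389 to 2247 more positive and 966 to 1783 more negative loci at an unadjusted p under 0.05. Leaving out the stop1 or the almt1 malate library gave 2656 and 2632 more positive and 1985 and 1970 more negative. DESeq2 on all libraries gave 445 and 514. Among the 262 loci chosen for naming, 31 differed, 16 more positive and 15 more negative.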

How the data were processed

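The deposited values are raw counts of reads per TAIR locus, 1 table per library. Per the labels' protocols, TRIzol RNA went into TruSeq mRNA libraries that were not strand-specific. The submitters' processing notes name TopHat2, HTSeq and the TAIR10 genome; their versions and settings are not given in the sources used here. Lines for unassigned reads were dropped, and their shares are given with the results. Names, exon lengths and sequences came from RefSeq TAIR10.1, which held 32835 of the 33602 loci. Because strand was not kept, values of the 5573 measured loci (27.8%) that overlap another locus are uncertain.

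Log2 ratios of TMM-scaled counts were given exact conditional binomial 95% intervals (Clopper-Pearson), which cover counting error only, since reads without molecular identifiers are not independent molecules. A locus at 0 was set to a floor of 3 counts. By total counts this is 0.145 CPM at low phosphate and 0.100 CPM at high phosphate. The 9-library fit used edgeR 4.0.16 with TMM and filterByExpr (minimum count 10, minimum total 15) and Benjamini-Hochberg adjustment, in R 4.3.3 with limma 3.58.1; DESeq2 1.42.0 was an alternative. It has 2 residual degrees of freedom, which come from stop1 against almt1 within conditions after their mean difference is removed. The lone wild-type libraries add none, so its p-values measure only the spread between the mutants. Each SE was worked back from the test, as the absolute log2 difference divided by the square root of the F statistic. The fit was also run on counts simulated with its own estimates of spread. Such counts take wild type to vary as the mutants do, so that run cannot check this assumption. Length centring used 20 bins of nuclear protein-coding loci. Python 3.11.15 with pandas 2.3.3, numpy 2.4.6, scipy 1.17.1 and matplotlib 3.10.9 was used. Alternatives were other scalings, filters, folds, tools and lengths, and leaving out each of the 6 mutant libraries.

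Named loci were the 15 highest and 15 lowest called loci with at least 5 CPM in 1 library and no overlap, up to 5 members per list by absolute ratio, the 10 most abundant loci of each library, 5 per non-coding class, STOP1 and ALMT1. Other list members, runs and families named in the text were chosen after their values were seen. The 39 lists (747 loci, 690 with at least 20 counts) and all members were chosen with earlier results of these data known. The stop1 malate sample is titled as high phosphate but characterized as low phosphate with malate, which was followed.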

Additional observations from a re-analysis of the deposited data

Results flagged for a closer look

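For 31 of the 262 loci chosen for naming, the response to low phosphate in wild type differed from that of the mutants by edgeR's test of the difference, at an adjusted p under 0.05. Values below are differences on the log2 scale, wild-type response minus mutant response. Each rests on 1 wild-type library a side, and no cause was tested.

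More positive responses in wild type were found for glucosinolate and tryptophan genes: BCAT4 at 3.41, MAM1 at 3.83, BAT5 at 2.43 and ASA1 at 1.90. For jasmonate genes the difference was 3.92 for JAZ10 and 2.90 for ST2A. Iron genes gave 4.24 for IRT1 and 2.44 for NAS2. Wall genes gave 2.38 for LRX1, 2.08 for EXT3 and 6.36 for the peroxidase locus AT4G08780. The remaining values were 1.89 for PPDK, 1.56 for ARF5, 1.72 for PLT3, 5.68 for RD22 and 3.61 for the mitochondrial locus ATMG01390. For RD22 the stop1 pair held under 20 counts at low and high phosphate together.

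More negative responses in wild type were found for wall and surface proteins, at -4.28 for AGP30, -4.003 for AGP13, -3.41 for AGP14, -3.49 for XTH17, -2.92 for XTH16 and -2.38 for EXPB1. The transporters UMAMIT20, PIP2;4 and LAX3 gave -2.43, -2.01 and -1.26. CASP5 gave -2.15, AT4G25830 -3.94 and AT2G15960 -3.61. The hormone synthesis genes BR6OX1 and ACO5 gave -3.81 and -1.39. AT4G37950 had 0 counts at low phosphate in wild type, so only its adjusted p of 0.021 is given.

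The low-phosphate wild-type library also held 44.9% of its recorded reads as reads that did not align uniquely, which no count per locus includes. This share was 5.02% at high phosphate in wild type.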

How the results depend on the processing

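No paired analysis was possible because each group has 1 library and the result compares 1 library with 1. The medians of 3 lists changed sign. Centring on like exon length gave 0.07 for expansins and xyloglucan enzymes (-0.25 as measured) and -0.14 for ethylene (0.09 as measured), and scaling by total counts gave 0.08 for the cell cycle (-0.02 as measured). From the 2 libraries, a 4-fold threshold gave 881 higher and 428 lower, an interval wholly past 2-fold gave 1426 and 1080, and scaling by total counts gave 2406 and 1604, or 60.0% higher against 52.5% (a median shift of 0.10). In the 9-library fit, the offset by exon length gave 1680 higher. Using low- and high-phosphate libraries alone gave 4408 higher and 4173 lower, and for the difference from the mutants 2030 more positive and 1734 more negative. Differences numbered 445 and 514 by DESeq2, 280 and 234 with DESeq2 size factors, and 298 and 250 with no filter. DESeq2 called 263 of edgeR's 265 differences. The length offset called 240, but it left out organelle loci and loci without an exon length. The fit without organelle loci alone shared 239. Leaving out each of the 6 mutant libraries in turn gave 831 to 5020 higher, 603 to 4065 lower, 0 to 2656 more positive and 0 to 1985 more negative. The calls were 0 without the stop1 or the almt1 library of either phosphate level. Of the 31 named differences, 31 passed by DESeq2 and 30 with the length offset, which did not test the other, ATMG01390. Over the 39 lists, 3 of 195 counts and 1 of 195 medians moved by more than the limits set. The cause of these moves was not tested, and 2 residual degrees of freedom and 1 library a side limit every call.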
